A study of Homo sapiens with 17 samples.

Results

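The transcripts described here are those of 36 aminoacyl-tRNA synthetase genes, 20 of which encode the cytosolic enzymes or their subunits and 16 the mitochondrial enzymes. They were taken from a list of symbols, in which a symbol that ends in the digit 2 marks the mitochondrial enzyme, and all 36 were found among the 19222 genes of the table for the 1 h experiment and among the 9982 genes of the tables for the 2 h experiment. The symbols are printed as the tables give them, so that AARS or HARS is the gene now called AARS1 or HARS1. TimeLapse sequencing (TL-seq) was performed on wild-type HEK-293T cells, a line of human embryonic kidney cells. In the 1 h experiment, 3 libraries came from untreated cells and 3 from cells given 1.8 µM emetine, all with 500 µM 4-thiouridine (s4U) for 1 h, and 1 untreated and 1 emetine library came from cells that received no s4U. In the 2 h experiment, 3 untreated libraries, 3 with 1.8 µM and 3 with 240 µM emetine were made, with 250 µM s4U in the labels. The labels do not say whether replicates are separate cultures, so p-values measure the spread between these libraries. Emetine is an alkaloid that blocks the movement of ribosomes along mRNA, and the comparison asks how transcripts respond when elongation is slowed.

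An aminoacyl-tRNA synthetase joins an amino acid to its tRNA, the step that lets the ribosome read a codon as that amino acid. Most amino acids have a separate enzyme for the cytosol and for the mitochondrial matrix, and both kinds are encoded in the nucleus, made on cytosolic ribosomes and, for the mitochondrial kind, imported. A few genes, GARS and KARS among them, give both forms. Many cytosolic synthetase genes carry response elements for ATF4, the transcription factor of the amino acid response. s4U enters RNA made during the labeling and is later read as a T-to-C conversion, so the fraction new, the share of a gene's reads that come from RNA made within the hour, is high for a transcript that turns over quickly and low for one that persists.

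RefSeq promoter windows on GRCh38.p14, reaching from 250 bases before to 50 bases after a start site, were matched for 30 of the 36 genes. DARS, LARS, VARS, YARS, AARS2 and VARS2 had none. The core of the element that ATF4 binds, TGATGNAA, was searched on both strands. It was found for 7 of the 16 cytosolic genes with a window (AARS, CARS, GARS, IARS, MARS, NARS and TARS) and for 1 of the 14 mitochondrial genes (YARS2), and 4.46% of the 27305 genes with any window hold it. Its first base lay at 187 bases before the start site in AARS and between 33 bases before and 14 bases after it in the other 6 cytosolic genes, while in YARS2 it lay 197 bases before. These matches describe letters in a window and are not evidence of binding. Examples from both kinds are shown with the match in capitals, since this element was found in cytosolic genes for the most part.
AARS, chr16:70289660-70289719, minus strand: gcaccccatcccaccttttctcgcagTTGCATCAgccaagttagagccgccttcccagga
IARS, chr9:92293698-92293736, minus strand: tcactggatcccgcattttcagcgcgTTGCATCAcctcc
YARS2, chr12:32756061-32756120, minus strand: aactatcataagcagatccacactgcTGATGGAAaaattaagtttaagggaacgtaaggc

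The stretches upstream of MARS2 and PARS2 are printed because these mitochondrial genes were the only synthetase genes called in the main tests below. In MARS2 the capitals mark the palindromic core of the NRF-1 site, 10 letters that read the same on both strands, which 1.52% of genes with a window hold and which no other of the 30 synthetase genes with a window held. In PARS2 they mark CCGGAAGT, bound by ETS factors such as GABP and held by 4.95% of genes, and GATTGG, the CCAAT box read from the other strand and held by 17.9%. Among the synthetase genes, CCGGAAGT was in the windows of 5 of 16 cytosolic and 3 of 14 mitochondrial genes, and GATTGG in those of 3 and 6.
MARS2 upstream, chr2:197705249-197705368, plus strand: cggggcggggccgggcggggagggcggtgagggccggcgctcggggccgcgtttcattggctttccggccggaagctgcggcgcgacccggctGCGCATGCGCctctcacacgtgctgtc
PARS2 upstream, chr1:54764524-54764773, minus strand: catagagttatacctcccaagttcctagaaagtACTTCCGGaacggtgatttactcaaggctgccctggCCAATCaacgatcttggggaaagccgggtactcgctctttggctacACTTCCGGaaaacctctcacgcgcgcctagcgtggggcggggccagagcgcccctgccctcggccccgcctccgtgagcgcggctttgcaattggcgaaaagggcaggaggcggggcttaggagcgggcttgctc

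HARS and HARS2, which encode the cytosolic and the mitochondrial histidyl-tRNA synthetase, lie head to head on chromosome 5. There are 84 bases between the start sites of their MANE Select transcripts, while the genes as annotated with all transcripts overlap by 108 bases. The interval of 84 bases, shown on the plus strand, holds CCGGAAGT at both ends, in capitals, facing each gene.
HARS and HARS2 interval, chr5:140691371-140691454, plus strand: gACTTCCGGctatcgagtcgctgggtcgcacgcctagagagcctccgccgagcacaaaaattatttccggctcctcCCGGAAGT
In all, 8 of the 36 genes had a protein-coding neighbor that starts within 1000 bases on the other strand. One of them was SARS2, 180 bases from MRPS12, which encodes a protein of the mitochondrial ribosome. No stretch of 50 bases was shared between the MANE Select transcripts of any 2 of the 36 genes, and none of the 491 kinds of ambiguous read assignment in the table named one.

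Depth in the 1 h experiment ran from 27416189 to 48852046 reads a library, and 81.1% to 82.3% of them had been assigned to a single gene. Every synthetase gene had at least 238 reads in each of the 6 libraries with s4U, between 1553 and 18658 for the cytosolic genes and between 238 and 8565 for the mitochondrial ones. No molecular identifiers are described, so errors of single libraries cover counting error only. Emetine replicate 3 stood apart from the others: the biological coefficient of variation over all genes was 13.3% with it and 6.43% without it, and over 10673 genes its deviation from the emetine mean rose with transcript length (Spearman's rho 0.69). The fraction new also differed between untreated libraries, with medians over 10763 genes of 9.26%, 12.3% and 14.7% against 10.7%, 11% and 10.3% with emetine. Of 6 markers of HEK-293T cells, NEFM, NEFL, VIM and KRT18 had at least 884 reads in each library with s4U, KRT8 at least 100 and PAX2 only 26 to 85. Of the markers of other cell types, COL1A2, PECAM1 and ALB had at most 10 reads, and PTPRC was not found among the genes of the 1 h experiment. HBA1 had 9 to 62 and EPCAM 17 to 41, a range that overlaps that of PAX2 for HBA1 and EPCAM alike.

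In untreated cells the cytosolic transcripts were more abundant than the mitochondrial ones. Levels of different genes were compared as CPM, a gene's reads scaled to the size of the library, per kb of merged exons, and the median was 36.4 for the 20 cytosolic genes (7.0 for CARS to 181 for FARSA) and 11.5 for the 16 mitochondrial genes (2.29 for RARS2 to 56.1 for IARS2), a ratio of 3.16. The merged exons of a gene are often much longer than its main transcript. With the longest transcript as the length the ratio was 4.49, and with the MANE Select transcript, a choice added after the data were seen, it was 5.72. Within the 13 amino acids whose cytosolic and mitochondrial enzymes share a stem, the cytosolic transcript was the more abundant one per kb in all 13 pairs by MANE Select length and in 11 pairs by merged exons. The exceptions by merged exons were IARS2 and YARS2, with ratios of 0.397 and 0.974 of the cytosolic over the mitochondrial level. FARSA, the catalytic subunit of phenylalanyl-tRNA synthetase, was at 181 ± 9 CPM per kb of merged exons. FARSB, the other subunit of the same enzyme, was at 31.9 ± 0.67, and PARS2, the mitochondrial prolyl enzyme, at 4.58 ± 0.16 (SD, n = 3 each).

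Cytosolic synthetase transcripts also carried little new RNA. Their median fraction new was 4.52%, 5.75% and 7.65% in the 3 untreated libraries, and each of the 20 lay below the median of all genes in every one of these libraries. The lowest was QARS (glutaminyl), with 2.23%, 2.89% and 4.04%, followed by EPRS, the fused glutamyl and prolyl enzyme, with 3.08%, 3.57% and 5.22%. MARS, the methionyl enzyme, had 2.80%, 4.33% and 5.63%. The spread between libraries was wider than the steps between these 3 genes. At the upper end, SARS (seryl) had 8.56%, 8.89% and 11.2%, NARS (asparaginyl) 6.14%, 8.94% and 10.9%, and FARSA 5.77%, 7.98% and 9.69%. Half-lives follow from these fractions if cells were at steady state and labeled from the start of the hour, with no correction for growth. Over the 20 genes they had a median of 12 h, from 7.01 h for SARS to 23.7 h for QARS. On reads that cross a splice junction alone, SARS had 3.51%, 3.69% and 4.41%, beside cytosolic medians of 3.87%, 4.92% and 6.53%. Its place at the upper end and its 7.01 h therefore depend on reads that cross no junction.

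The mitochondrial transcripts covered a far wider range. Their median fraction new was 6.53%, 8.77% and 11.3% in the untreated libraries, 11 of the 16 lay below the median of all genes in every untreated library, and 4 lay above it in every one. The highest were PARS2, with 38.9%, 66.1% and 67.6%, and MARS2, the mitochondrial methionyl enzyme, with 43.9%, 56.4% and 61.8%. HARS2 followed with 21.9%, 19.6% and 27.1%. PARS2 and MARS2 each exceeded every other synthetase transcript in every untreated library, and overlapped with each other. The lowest were CARS2 (cysteinyl), with 3.65%, 2.34% and 4.76%, IARS2 (isoleucyl), with 2.49%, 3.76% and 5.34%, and RARS2 (arginyl), with 1.92%, 4.67% and 5.18%, and these ranges overlapped. Without s4U no synthetase gene had a fraction new above 0.265%.

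**Figure D1:**
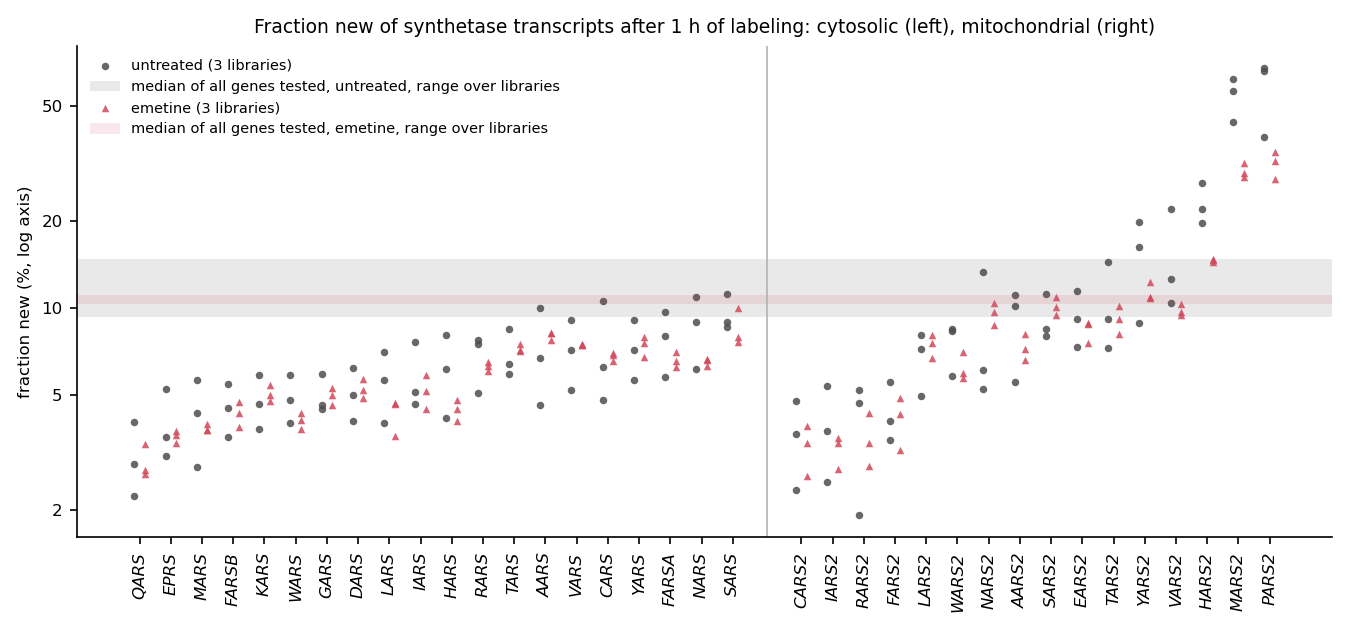
Fraction new (%, log axis) of the 36 synthetase transcripts in each of the 3 untreated libraries (gray circles) and the 3 emetine libraries (red triangles), cytosolic genes left and mitochondrial genes right, each ordered by the untreated mean; the bands span the medians of all genes tested over the libraries of each treatment. MARS2 and PARS2 stand far above the others, between 38.9% and 67.6% in untreated cells, and their emetine libraries lie lower, between 27.9% and 34.5%.

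The half-lives that follow from the untreated libraries were 0.919 ± 0.251 h for MARS2 and 0.888 ± 0.451 h for PARS2, against a median of 7.78 h over the 16 mitochondrial genes and 2.73 ± 0.50 h for HARS2 (SD, n = 3). Within pairs for the same amino acid, the mitochondrial transcript had the higher fraction new in all 3 untreated libraries in 8 of 13 pairs and the lower one in 3 (CARS2, IARS2 and RARS2). MARS and MARS2 differed most, 4.26% against 54.0% on average. HARS and HARS2, whose start sites are 84 bases apart, had 6.11% against 22.8%, and HARS2 was the higher one in each of the 6 libraries with s4U. The 2 transcripts that stood highest were also those with the fewest exons: MARS2, at chr2:197705369-197708395, has 1 exon and PARS2, at chr1:54756898-54764523, has 2 (GENCODE 44, GRCh38), while the other mitochondrial genes have 5 to 30 and the cytosolic ones 11 to 34. Over all genes tested, the median untreated fraction new was 35.4% for genes with 1 exon, 28.9% for the 431 with 2 exons and 11% for the 8452 with 5 or more. Only 0.0169% of MARS2 reads and 1.07% of PARS2 reads crossed a splice junction, against medians of 69.5% for the cytosolic and 49.8% for the mitochondrial genes. On such reads the untreated medians were 3.36%, 5.92% and 8.35% over the 14 mitochondrial genes without MARS2 and PARS2. The cytosolic medians were 3.87%, 4.92% and 6.53%, so the mitochondrial one was lower in replicate 1. AARS2, counted among the 8 pairs above, had 1.83%, 6.03% and 5.27% against 3.40%, 4.91% and 7.24% for AARS. The other pairs were not counted on these reads.

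**Figure D2:**
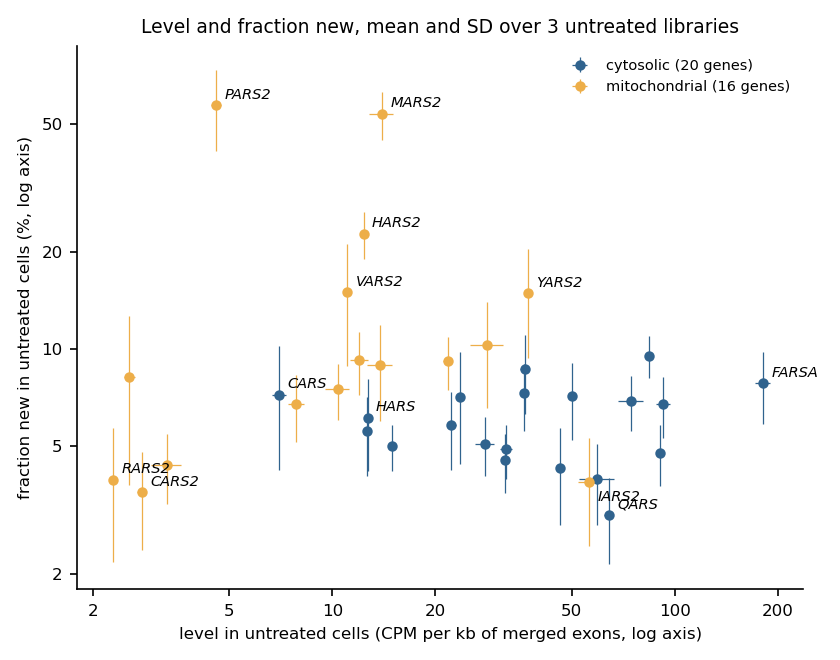
Level in untreated cells (CPM per kb of merged exons, log axis) against fraction new (%, log axis) for 20 cytosolic (blue) and 16 mitochondrial (yellow) synthetase transcripts, with the mean and SD over 3 untreated libraries. The cytosolic transcripts all lie below 10% fraction new at levels from 7.0 to 181, and the mitochondrial ones spread from 3.58% (CARS2) to 57.5% (PARS2).

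After 1 h of emetine, the fraction new was called lower for MARS2 and PARS2 and for no other synthetase transcript, at an adjusted p under 0.05 in limma on the logit of the fraction. Over all genes tested, 4.83% were called lower and 0.214% higher, so that 2 of 36 is close to the share over all genes. In MARS2 the fraction new was 29.2%, 28.2% and 31.7% with emetine, against 43.9%, 56.4% and 61.8% without. The groups did not overlap, the logit changed by -1.02 ± 0.23 (SE), and the adjusted p from limma was 0.00235. In PARS2 it was 27.9%, 32.1% and 34.5% with emetine, against 38.9%, 66.1% and 67.6%. Here too the groups did not overlap, and the logit changed by -1.09 ± 0.25 with an adjusted p of 0.00526 in limma. The untreated libraries spread more than the emetine ones: the counting error of PARS2 was at most 3.40 percentage points in any of the 6 libraries, while its untreated values spanned 38.9% to 67.6%. Each call was lost when certain single libraries were left out. For MARS2 the adjusted p from limma was 0.0639 when untreated replicate 3 was left out and 0.0547 when emetine replicate 2 was. For PARS2 it was 0.0603 and 0.223 with untreated replicate 2 or 3 left out, and 0.0505 with emetine replicate 1 left out. These fits called fewer genes of any kind: 186 and 94 lower without untreated replicate 2 or 3, and 167 and 194 without emetine replicate 1 or 2. The fit with all 6 libraries called 520 of 10763 lower. Leaving out untreated replicate 1 added NARS, HARS2 and YARS2 to the calls, in a fit that called 23.5% of all genes lower. Of the 315 genes with an untreated fraction new between 49% and 62.5%, within 5 percentage points of these 2 and counting them, 137 (43.5%) were called lower. Over the 315 genes the median change in logit was -0.70. The range was set on the same untreated libraries that enter the change, so a high untreated value by itself favors a lower change.

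The level of PARS2 rose, and it was the only one of the 36 whose level was called, in edgeR's quasi-likelihood test over 13776 genes, of which 2.64% were called higher and 0.0436% lower. A count of 1 in 36 is close to the share called higher over all genes. PARS2 had 10.5, 10.6 and 11.2 CPM in untreated cells and 16.6, 18.2 and 20 CPM with emetine. Each emetine library lay above each untreated one, the log2 fold change was 0.76 ± 0.12 (SE), and the adjusted p was 0.0162 in edgeR. In the absence of s4U it had 13.8 CPM in the untreated and 20.6 CPM in the emetine library, a log2 ratio of 0.58 with no replicate. The call was lost without any 1 of the untreated libraries, with adjusted p-values from edgeR of 0.118, 0.125 and 0.0927. Those fits called 4, 5 and 18 of all genes higher, against 363 with all 6 libraries. The log2 fold change of PARS2 stayed between 0.70 and 0.82 over the 6 fits that each left out 1 library. The call was also lost on scaling to the spike-in reads, where the log2 fold change was 1.43 with an adjusted p of 0.136 in edgeR. With the replicate number in the model it was 0.76, with an adjusted p of 0.0577 in edgeR. MARS2 had 38.7, 42.4 and 45.6 CPM in untreated cells and 51.2, 53.6 and 72.0 CPM with emetine, where replicate 3 was the high one. The groups did not overlap, but the log2 fold change of 0.48 ± 0.14 was not called, with an adjusted p of 0.118 in edgeR. Without emetine replicate 3 it was 0.32 with an adjusted p of 0.0115, in a fit where 10.1% of all genes were called higher, and in DESeq2, where 5.95% were, it was 0.46 with an adjusted p of 0.0464. Cells without s4U had 44.6 CPM of MARS2 in the untreated and 45.1 CPM in the emetine library. Genes of like turnover rose too. Over the 315 genes within 5 percentage points of MARS2 and PARS2 in untreated fraction new, these 2 included, the median log2 fold change of level was 0.43. Over all genes it was 0.03.

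**Figure D3:**
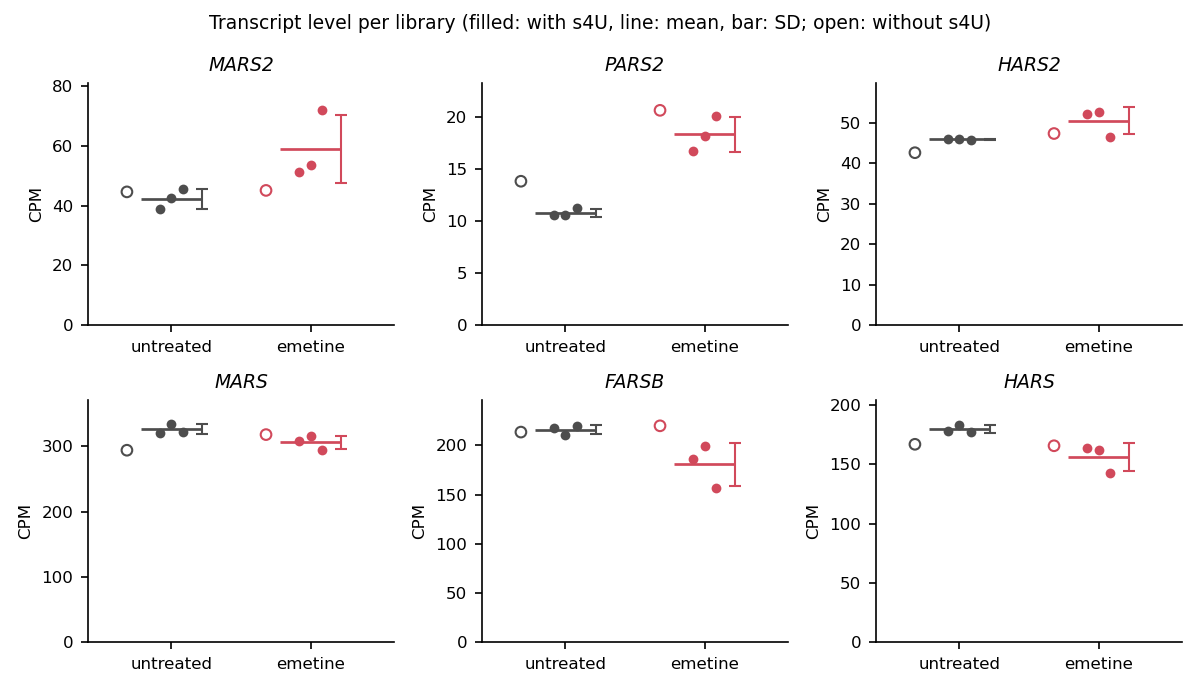
Level (CPM, axes from 0) of MARS2, PARS2 and HARS2 and of the cytosolic MARS, FARSB and HARS in each 1 h library; filled points are the 3 libraries with s4U, with mean and SD, and open points the 1 library without s4U. PARS2 is higher in every emetine library, with and without s4U, while MARS2 without s4U is at 44.6 and 45.1 CPM.

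The reads were then divided into labeled and unlabeled ones, CPM times the fraction new and CPM times the rest. Unlabeled reads rose for the same MARS2 and PARS2 and for no other synthetase gene, where 7.3% of all genes were called higher and 0.0929% lower. A count of 2 in 36 is not above the share called higher over all genes. MARS2 had 21.7, 18.5 and 17.4 unlabeled CPM in untreated and 36.2, 38.5 and 49.1 in emetine-treated cells. The log2 change, with 0.5 CPM added, was 1.08 ± 0.15 (SE), with an adjusted p of 0.00367 in limma. PARS2 had 6.44, 3.60 and 3.64 unlabeled CPM in untreated and 12, 12.3 and 13.1 in treated cells. Its log2 change was 1.40 ± 0.21, with an adjusted p of 0.00542 in limma. Both held in every fit that left out 1 library, with adjusted p-values of at most 0.0327 for MARS2 and 0.042 for PARS2. Labeled reads were called for no synthetase gene, with 0.26% of all genes called higher and 0.632% lower. MARS2 had 17, 23.9 and 28.1 labeled CPM in untreated and 15.0, 15.1 and 22.8 in treated cells, and PARS2 had 4.10, 7.0 and 7.60 against 4.65, 5.84 and 6.91. In both the groups overlapped, and the log2 changes of -0.37 ± 0.23 and -0.07 ± 0.26 had adjusted p-values of 0.533 and 0.953 in limma.

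**Figure D4:**
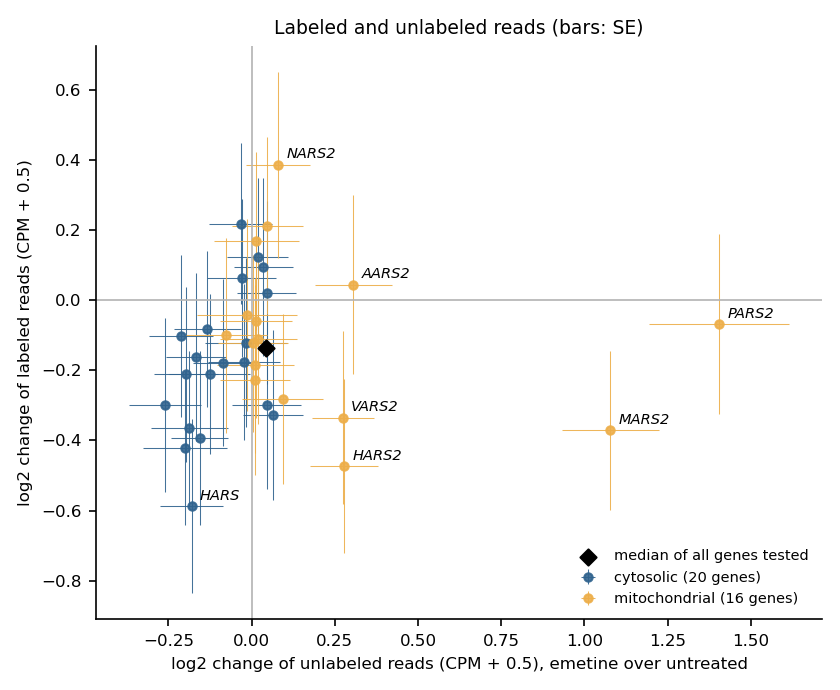
Log2 change of unlabeled reads against that of labeled reads, emetine over untreated, for 20 cytosolic (blue) and 16 mitochondrial (yellow) synthetase transcripts, with SE bars from limma; the diamond is the median of all genes tested. MARS2 and PARS2 lie at 1.08 and 1.40 on the axis of unlabeled reads, and every other synthetase lies between -0.26 and 0.31 on it.

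Among the other 14 mitochondrial transcripts, no level, fraction new or class of reads was called in edgeR or limma. At an unadjusted p under 0.05 and over all 16, 4 were higher in level (14.9% of all genes were), 4 lower in fraction new (15.4%) and 5 higher in unlabeled reads (19.4%), while 0 differed in labeled reads (1.64% of all genes higher, 10.6% lower). HARS2 had the next lowest change in fraction new: 14.4%, 14.8% and 14.6% with emetine lay below 21.9%, 19.6% and 27.1% without, a change in logit of -0.54 ± 0.21 with an adjusted p of 0.125 in limma. VARS2, the mitochondrial valyl enzyme, was also lower in every emetine library, at 9.46%, 10.3% and 9.64% against 10.4%, 12.6% and 22%, with a change of -0.43 ± 0.22 and an adjusted p of 0.296. On reads that cross a splice junction alone, the change was -0.27 for HARS2 and -0.44 for VARS2, with adjusted p-values of 0.867 and 0.778 in limma. That fit called 0 of 6523 genes. Counting MARS2 and PARS2, the fraction new did not overlap between treatments in 4 of 16 mitochondrial and 0 of 20 cytosolic transcripts, all of them lower with emetine, where 16.8% of all genes were lower and 2.19% higher without overlap. By level, AARS2 (alanyl) came after PARS2 and MARS2, with 73.4, 77.6 and 65.8 CPM in untreated and 79.6, 85.2 and 99.2 CPM in treated cells. These did not overlap, and the log2 fold change of 0.28 ± 0.11 had an adjusted p of 0.199 in edgeR. HARS2 had 46.1, 45.9 and 45.8 CPM against 52.2, 52.6 and 46.6, with a log2 fold change of 0.14 ± 0.09. At the other end, CARS2 had 27.9, 29.7 and 29.3 CPM against 29.1, 30.1 and 23.3, WARS2 (tryptophanyl) 38.4, 43.4 and 37.5 against 39.3, 41.3 and 37.7, and FARS2 (phenylalanyl) 15.1, 17.8 and 14.8 against 16.8, 17.6 and 13, all with overlap. Over the 16 genes the median log2 fold change was 0.04, beside 0.03 for all genes, and turned to -0.01 once a trend on length and GC content was removed. Of these genes 6 of 16 were higher and 0 lower without overlap, beside 19.5% and 15.2% of all genes. Without emetine replicate 3, 8 of 16 were higher without overlap, beside 25% of all genes.

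No cytosolic transcript was called for level, in edgeR or DESeq2, or for fraction new, labeled or unlabeled reads in limma. Their log2 fold changes of level ran from -0.26 for FARSB to 0.04 for CARS with a median of -0.11, and 15 of 20 were below 0, where 6333 of 13776 genes were. At an unadjusted p under 0.05, 2 (FARSB and HARS) were lower and 0 higher in level in edgeR, where 6.95% of all genes were lower and 14.9% higher. In limma 0 of the 20 differed in fraction new at that p, where 15.4% of all genes were lower and 1.15% higher. HARS was lower in labeled reads, as 10.6% of all genes were, and FARSB in unlabeled reads, as 7.06% were. The emetine libraries lay wholly below the untreated ones in 8 of 20 (40% of the list, beside 15.2% of all genes) and wholly above in none. These 8 were FARSB, GARS, HARS, KARS, MARS, QARS, SARS and WARS. Without emetine replicate 3 the median was -0.08, with 10 of 20 below in both remaining emetine libraries, beside 20.8% of all genes. These changes are relative to the whole library: on scaling to the spike-in reads the median over all genes went from 0.03 to 0.71 and that of the cytosolic genes to 0.56, so the sign of the cytosolic median turned while it stayed below that of all genes. The share of spike-in reads was 0.667%, 0.480% and 0.728% in the untreated and 0.304%, 0.666% and 0.408% in the emetine libraries, and the groups overlapped. A change in the number of cells and a change in RNA per cell cannot be told apart in such bulk libraries.

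The lowest change was that of FARSB, with 217, 211 and 219 CPM in untreated and 186, 199 and 157 CPM in treated cells. The treated libraries lay below, replicate 3 lowest, and the log2 fold change of -0.26 ± 0.11 had an adjusted p of 0.212 in edgeR. Its partner FARSA had 415, 458 and 447 CPM against 386, 437 and 320, with overlap and a log2 fold change of -0.21 ± 0.12. KARS, the lysyl enzyme, had 360, 368 and 370 CPM against 324, 337 and 291 (-0.20 ± 0.09). HARS had 178, 183 and 177 CPM against 164, 162 and 142 (-0.20 ± 0.09), the opposite sign to its neighbor HARS2, and its fraction new of 4.15%, 6.15% and 8.04% overlapped with 4.04%, 4.81% and 4.47%. At the upper end, CARS (cysteinyl) had 70.9, 66.5 and 73.3 CPM against 73.9, 71.3 and 71.1, DARS (aspartyl) 132, 124 and 141 against 135, 133 and 140, and NARS 153, 150 and 144 against 155, 146 and 156. In all 3 the groups overlapped. Of the 8 enzymes of the multi-synthetase complex (EPRS, IARS, LARS, MARS, QARS, RARS, KARS and DARS), 6 had a log2 fold change below 0 and the median was -0.06. The same median held over the 10 class I enzymes, against -0.18 over the 10 class II enzymes, the classes being set by the fold of the catalytic domain, and no member of these groups was called.

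**Figure D5:**
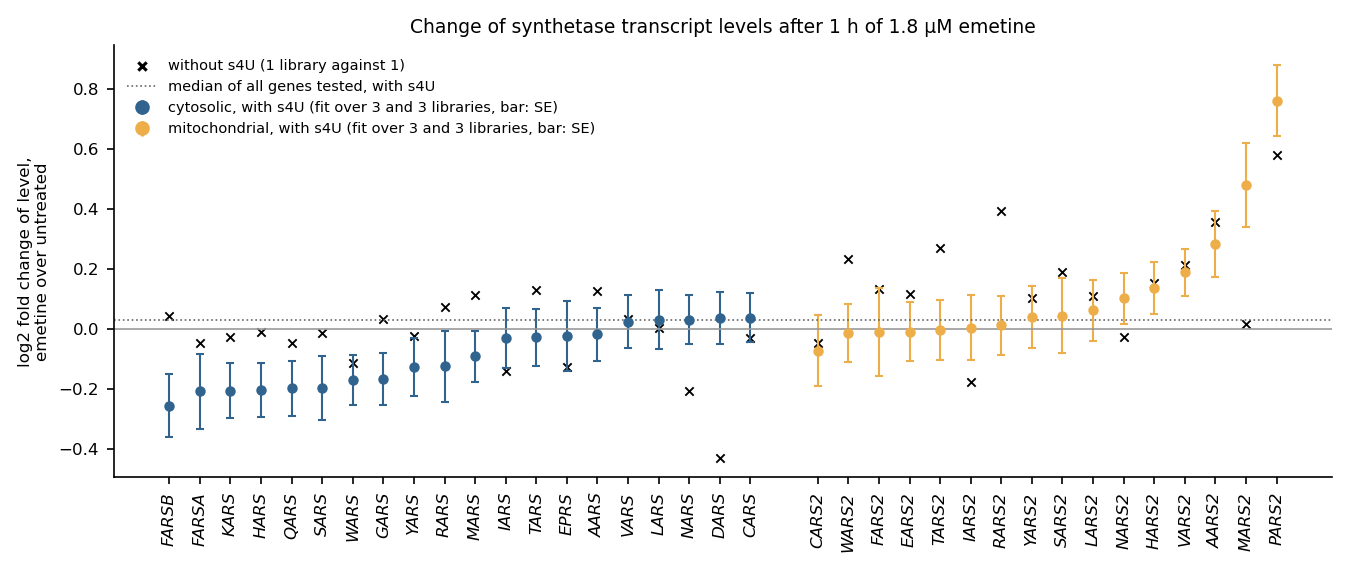
Log2 fold change of level, emetine over untreated, for 20 cytosolic (blue) and 16 mitochondrial (yellow) synthetase transcripts, each list in order of the change, with SE from edgeR; crosses are the log2 ratio of the 1 emetine over the 1 untreated library without s4U, and the dotted line is the median of all genes tested. Cytosolic transcripts lie between -0.26 and 0.04, and PARS2 (0.76) and MARS2 (0.48) lie above the rest.

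In cells without s4U there was 1 library a treatment, so these differences have no replicate check. The log2 ratio of emetine over untreated was above 0 for 8 of 20 cytosolic genes, with a median of -0.02 and a range from -0.43 (DARS) to 0.13 (TARS), and for 13 of 16 mitochondrial genes, with a median of 0.14 and a range from -0.18 (IARS2) to 0.58 (PARS2). After PARS2, the highest ratios were those of RARS2 (0.39) and AARS2 (0.36). RARS2 had 41.1, 39.6 and 40.5 CPM in untreated and 44.3, 41.0 and 36.8 CPM in emetine-treated cells with s4U, which overlapped.

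The 2 h libraries were used only for the authors' mean of normalized counts over all 9 of them, which gives no change with treatment. Per kb of MANE Select transcript, the median of that mean was 1531 for the cytosolic and 298 for the mitochondrial genes, a ratio of 5.13 beside 5.72 in untreated cells of the 1 h experiment on the same lengths. The cytosolic genes ran from 316 (CARS) to 3073 (IARS) and the mitochondrial ones from 85.6 (PARS2) to 2161 (IARS2). Over the 36 genes the order of levels in the 1 h experiment, by MANE Select length, and the 2 h experiment had a Spearman's rho of 0.80. This is across genes, which share libraries and are no replicates, and the experiments were prepared with different kits, one for poly(A) RNA and the other for total RNA.

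Among 14 partners of the charging step, no level was called out of 14 tested in edgeR (1 higher and 1 lower at an unadjusted p under 0.05, where 14.9% and 6.95% of all genes were), no fraction new out of 13 in limma (0 at that p), and 1 of 13 was called higher for unlabeled reads, beside 7.3% of all genes: SEPSECS, which makes selenocysteine on its tRNA, with a log2 change of 0.64 and an adjusted p of 0.0387 in limma. AIMP1, AIMP2 and EEF1E1, the scaffolds of the multi-synthetase complex, had log2 fold changes of level of -0.17, -0.15 and -0.05. Among 15 genes of the amino acid response, the level of 1 rose, that of the transcription factor ATF3, by 1.91 on the log2 scale (adjusted p 0.000845 in edgeR), beside 2.64% of all genes. The fraction new of 2 fell, those of CHAC1 and DDIT3, by 1.27 and 1.14 on the logit scale, beside 4.83% of all genes. Labeled reads rose for 1, ATF3, by 2.17 on the log2 scale (0.26% of all genes), and unlabeled reads for 2, DDIT3 by 1.73 and ATF3 by 1.39 (7.3%). ATF4 itself had 856 CPM in untreated and 872 CPM in treated cells on average, and ASNS, the asparagine synthetase that ATF4 drives, had 163 and 142.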

How the data were processed

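For the 1 h experiment the authors used cutadapt, hisat-3n on hg38 and bam2bakR, and the deposited counts are whole reads, not normalized, listed by gene with their T bases and conversions. For the 2 h experiment the deposited signal is the mean that the authors took of counts divided by spike-in size factors, and their fold changes and p-values were not used. Reads were summed per gene. Levels of the 13776 genes with over 100 counts summed over the 6 s4U libraries were tested with edgeR 4.0.16 (TMM, quasi-likelihood), run in R 4.3.3. CPM were scaled by TMM over the 8 libraries. For the fraction new, a mixture of old and new reads, each binomial in its conversions, was fitted by likelihood in Python 3.11.15, with the background rate from the library without s4U of the same treatment (0.0504% untreated, 0.0521% emetine) and the rate of new reads fitted per library (8.49% to 9.53% with s4U). Its logit, bounded at 0.001 and 0.999, and the log2 of labeled and unlabeled CPM plus 0.5, were tested with limma 3.58.1 (trend, robust) for the 10763 genes whose 6 s4U libraries each had 100 reads or more. All 36 genes passed both filters. Benjamini-Hochberg adjustment ran over all genes tested. An exact permutation test of 3 against 3 libraries reaches at best p = 0.1. The steps were tested on simulated data that held no shift of the fraction new between libraries and no trend with transcript length. Those features of the real libraries were therefore not covered. The study used bakR, which was not run here.

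The genes and lists were chosen with earlier results of these data known. Values in every library are given for each synthetase called for level or fraction new, for the 3 highest and 3 lowest of each list by change in level and by untreated fraction new, and for HARS and HARS2; others named were chosen after their values were seen. GATTGG, CCGGAAGT and the NRF-1 core were added after the data were seen. Of 19222 symbols, 17148 matched GENCODE 44 on GRCh38 directly and 1148 by an older symbol. Alternatives were DESeq2 1.42.0, other size factors, spike-in scaling, other filters, a trend on length and GC content removed with mgcv 1.9.3, other rates, weights and centering of the fraction new, a replicate block and leaving out each library. Figures were drawn with matplotlib 3.10.9. The row numbers of the 1 h table run to 21795957 while it holds 20018911 rows, all of which were used.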

Additional observations from a re-analysis of the deposited data

Results flagged for a closer look

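For 4 synthetase transcripts the emetine libraries with s4U lay all on one side of the untreated ones while the single pair of libraries without s4U pointed the other way. Without s4U the log2 ratio of emetine over untreated was 0.0424 for FARSB, 0.0336 for GARS and 0.113 for MARS, whose levels with s4U were lower in all 3 emetine libraries, and it was -0.0257 for NARS2, whose level with s4U was higher in all 3 emetine libraries (42.8, 40.1 and 42.6 CPM untreated, 45.5, 43.5 and 45.6 CPM with emetine). Over all genes tested, 19.5% were higher and 15.2% lower in level without overlap, and how many of these had the opposite sign without s4U was not counted. Whether 4 is more than over all genes is therefore not known. None of the 4 was called with s4U in edgeR, the difference between cells with and without s4U was not tested, and with 1 library a treatment the ratios without s4U have no error.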

How the results depend on the processing

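The number of synthetase transcripts called higher in level was 1 in the test reported. It was 0 with spike-in reads as library size and 0 with a replicate block, 2 (MARS2 and PARS2) with the Wald test of DESeq2, and 0 to 2 when single libraries were left out. No level was called lower in any of these fits. The median log2 fold change of the mitochondrial genes, 0.04 as reported, was 0.020 with size factors of the DESeq2 type, 0.020 with DESeq2, 0.71 with spike-in scaling and -0.014 after removal of a trend on length and GC content, and ran from 0.035 to 0.10 without single libraries. That of the cytosolic genes, -0.11 as reported, was 0.56 with spike-in scaling and ran from -0.14 to -0.077 without single libraries. The number called lower in fraction new, 2 as reported, was 1 with at least 50 reads, 1 with at least 500 reads (34 of the 36 tested, PARS2 not among them, and MARS2 at an adjusted p of 0.00018 in limma), 0 on reads across a splice junction (an alternative added after the data were seen, which tested 34 of the 36 and called 0 of 6523 genes, fewer genes and reads than before) and 0 to 5 without single libraries; without untreated replicate 1 NARS, HARS2 and YARS2 were also called, where 23.5% of all genes were. The number called lower in labeled reads was 0 to 5 without single libraries, with 5 (FARSA, HARS, MARS2, NARS and YARS2) without untreated replicate 1, where 16.1% of all genes were called, and that called higher in unlabeled reads was 2 to 4, with HARS2 and VARS2 added without emetine replicate 3, where 13.7% were called. The level per kb was 65.6 (cytosolic) and 14.6 (mitochondrial) with the longest transcript and 99.2 and 17.3 with the MANE Select transcript. Over all genes, the level test called 363 higher and 6 lower, against 820 and 156 in DESeq2, 1367 and 525 without emetine replicate 3, and 4 to 18 higher without an untreated library. The causes were not tested. Replicate numbers are shared between the groups but did not pair the libraries: deviations of same-numbered libraries correlated at 0.07, -0.01 and -0.18 for level and 0.06, 0.00 and 0.02 for fraction new. With the replicate block the adjusted p of PARS2 for level was 0.0577 in edgeR, and the calls of MARS2 and PARS2 for fraction new and unlabeled reads were kept.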
